A study of Mus musculus with 16 samples.

Results

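The chromatin of hematopoietic stem and progenitor cells (HSPCs) that lack Tet2 was compared with that of wild-type HSPCs by ATAC-seq, in which a transposase cuts and tags DNA that is open in the nucleus. The 8 libraries were those titled TET2KO replicates 1 to 4 and WT replicates 1 to 4, of 16 libraries in the series. By the study's methods, WT animals were Ep300 fl/fl mice, whose p300 gene is flanked by recombination sites but was not deleted, and TET2KO animals were Ep300 fl/fl;Tet2-/- mice, which carry the Tet2 deletion in the germline and so in every cell. The other 8 libraries were 4 P300KO (Mx1-Cre;Ep300 fl/fl) and 4 P300KO_TET2KO (Mx1-Cre;Ep300 fl/fl;Tet2-/-) libraries, in which the interferon-inducible Mx1 promoter drives Cre. Mice of every genotype were on a C57BL/6 background and received poly(I:C), the double-stranded RNA analogue that switches on Mx1-Cre, when young adults. Each library came from bone marrow HSPCs pooled from a pair of age-matched mice of 1 genotype, frozen and thawed before the assay. The age of these mice at collection was not given in the sources used here. The labels tie replicates 1 and 2, but not replicates 3 and 4, to a merged peak list, without saying what else differed, and these are called the deposit sets here.

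TET2 is a dioxygenase that oxidises 5-methylcytosine at CpG dinucleotides, the first step of active DNA demethylation. Loss of TET2 is a frequent early event in clonal hematopoiesis and in myeloid malignancies, and in mice it expands the stem and progenitor compartment. Methylated CpGs are on the whole found in closed chromatin and unmethylated CpGs in open promoters and enhancers, and the ATAC-seq signal reads the openness but not the methylation itself. p300, deleted in the comparison libraries, is a lysine acetyltransferase of active enhancers.

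The sequences below show the kind of DNA at separated regions with the largest differences between genotypes, with the CpG dinucleotides, the substrate context of TET2, in capitals. Each is 200 bases of the mm10 (GRCm38) plus strand, read 5′ to 3′, centred on the strongest summit within the region, and each is named for the gene with the nearest transcription start, which need not be the gene it controls. The first 3 ranked higher in TET2KO. They are chr10:122886171-122886370 (intron of Ppm1h), chr11:22666109-22666308 (intergenic, 154 kb from the Tmem17 start) and chr2:73818896-73819095 (exon of Atf2).
Ppm1h: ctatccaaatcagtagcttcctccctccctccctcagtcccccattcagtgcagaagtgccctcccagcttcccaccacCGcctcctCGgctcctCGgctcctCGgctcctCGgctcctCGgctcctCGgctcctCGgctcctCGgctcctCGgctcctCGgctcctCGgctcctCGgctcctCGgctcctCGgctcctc
Tmem17: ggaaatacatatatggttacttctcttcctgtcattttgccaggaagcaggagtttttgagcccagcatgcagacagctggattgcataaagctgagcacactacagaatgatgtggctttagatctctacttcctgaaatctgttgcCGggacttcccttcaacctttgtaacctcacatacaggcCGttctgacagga
Atf2: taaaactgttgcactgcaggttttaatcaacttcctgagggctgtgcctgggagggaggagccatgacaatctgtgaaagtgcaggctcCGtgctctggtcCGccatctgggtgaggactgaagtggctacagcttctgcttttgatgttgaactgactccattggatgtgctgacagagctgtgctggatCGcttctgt
The other 3 ranked lower in TET2KO. They are chr11:113172530-113172729 (intergenic, 391 kb from Sox9), chr4:115280480-115280679 (intergenic, 18.4 kb from Cyp4a12a) and chr14:118982660-118982859 (intergenic, 36.2 kb from Uggt2).
Sox9: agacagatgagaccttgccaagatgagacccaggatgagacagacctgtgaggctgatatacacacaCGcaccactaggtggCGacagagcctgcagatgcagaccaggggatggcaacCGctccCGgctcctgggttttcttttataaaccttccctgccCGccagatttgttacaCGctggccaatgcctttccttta
Cyp4a12a: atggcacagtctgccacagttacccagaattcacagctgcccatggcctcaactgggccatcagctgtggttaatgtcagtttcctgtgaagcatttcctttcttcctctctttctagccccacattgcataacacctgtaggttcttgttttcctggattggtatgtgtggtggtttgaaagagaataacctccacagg
Uggt2: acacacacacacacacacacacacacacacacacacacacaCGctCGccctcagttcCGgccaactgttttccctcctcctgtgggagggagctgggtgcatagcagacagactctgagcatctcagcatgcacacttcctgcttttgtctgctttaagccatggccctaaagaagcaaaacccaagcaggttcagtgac
The Ppm1h window held 15 CpGs in its 200 bases, most of them in 14 tandem copies of the unit ctcctcgg that spanned 112 bp. The Cyp4a12a window held no CpG, and the remaining windows held 2 (Tmem17), 3 (Atf2), 6 (Sox9) and 3 (Uggt2). The Uggt2 window opened with 42 bp of an alternating ac repeat. The Tmem17 window held a match to the Nfkb string described further on. CpG content thus did not separate the higher from the lower windows among these 6.

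The deposited values were lists of intervals called open in each library, with no read counts, so the depth behind them is unknown and the statistical strength of an interval depends on it. Each list was therefore cut to its 50000 intervals with the highest −log10 p, and each region received a rank position in each library, from 100 for the strongest interval to 0 for a region with no interval among the 50000. A position of 0 says only that the region was not among the strongest 50000. Merging the 8 lists gave 75007 regions, of which 48998 had an interval in at least 4 libraries and were fitted. Of these, 47487 lay on autosomes outside 20 Mb of Tet2, 559 lay within 20 Mb of Tet2 on chromosome 3, and 952 lay on chromosomes X and Y. A region was called separated when both TET2KO libraries ranked above (or below) both WT libraries in replicates 1 and 2 and again in replicates 3 and 4.

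WT replicate 1 stood apart from the other 7 libraries. Its strongest 50000 intervals had a median width of 324 bp against 466 to 646 bp in the others, its 50000th interval had a −log10 p of 4.11 against 6.14 to 50.5, and 34157 fitted regions held one of its intervals against 40849 to 45068. Its mean rank position over the regions was accordingly 43.9, against 47.7 to 50 in the other libraries, so the counts of regions, genes, lists and the strings described are also given without it. Library strength also ran with genotype in the first deposit set beyond that library. In replicates 1 and 2 the 50000th interval was at a −log10 p of 4.11 and 6.14 in WT and of 9.69 and 9.35 in TET2KO, and the median widths were 324 and 466 bp against 545 and 497 bp. In replicates 3 and 4 it was at 45.1 to 48.3 in WT and 47 to 50.5 in TET2KO, with widths of 622 to 627 bp and 630.0 to 646 bp, so both genotypes were far stronger there and close to each other. Leaving out WT replicate 1 does not remove the difference in the first set, and its part in the results was not tested. With that library left out a region has fewer libraries to separate, so most counts are larger, and they are read against the shares of all regions counted the same way. Most promoters of the HSPC marker genes were covered in each library, 9 to 11 of the 11 markers in both genotypes. Of the marker lists for other cells, B cell promoters were covered for 2 to 5 of 6 markers in WT and 5 in TET2KO, monocyte promoters for 3 to 6 of 6 in WT and 6 in TET2KO, and neutrophil promoters for 0 to 4 of 6 in WT and 2 to 3 in TET2KO. Erythroid (3 to 4 of 6 and 4), megakaryocyte (4 of 6 and 4), T cell (2 to 3 of 6 and 3), NK cell (2 to 3 of 4 and 2), stroma and endothelium (4 to 5 of 6 and 4), mast cell and basophil (0 to 2 of 5 and 0 to 1) and hepatocyte (1 of 3 and 1) promoters likewise overlapped between genotypes. The part of cell composition in the differences below was not tested.

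No region passed an adjusted p of 0.05 in the limma fit of rank position with deposit set as a term. Of the 47487 regions, 0 (0%) were called higher and 0 (0%) lower, the lowest adjusted p over all fitted regions was 0.188, and 2141 regions were higher and 1353 lower at an unadjusted p under 0.05. Leaving out single libraries gave between 0 and 3 calls in each direction. The regions described below are therefore descriptions of rank in these libraries, and verbs of change are not used for them. By separation in both replicate pairs, 2166 regions (4.56%) ranked higher and 1363 (2.87%) ranked lower in TET2KO. In 755 of the higher and 508 of the lower regions all 4 TET2KO libraries lay on one side of all 4 WT libraries. These shares are the background against which every list and class below is read. Without WT replicate 1 the counts were 3326 (7%) higher and 3085 (6.5%) lower. Higher regions outnumbered lower ones both times, by much less without that library. When an interval had to cover 50% of a region, 2221 were higher and 765 lower, so the balance of the directions also depended on that choice. Replicates 3 and 4 alone, where the libraries were of like strength, gave 8314 higher and 7869 lower. Of the separated regions at genes of the 30 lists described below, 28 of 82 higher and 9 of 58 lower ones had a difference that moved by over 1.5 times without WT replicate 1, and none changed sign. For those given with a value below, the value without it follows.

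Most separated regions were also listed, at some rank, in all 4 full lists of the other genotype. The median difference in rank position was 13.3 over the higher and −10.7 over the lower regions, against 0.832 over all regions. In the full lists, 1544 of the 2166 higher regions (71.3%) held an interval in all 4 WT libraries, and 1331 of the 1363 lower regions (97.7%) held one in all 4 TET2KO libraries. None of these regions lacked an interval in every full list of the other genotype. The full lists reach down to a −log10 p of 2, so such an interval can be weak and does not show that the site was open. These shares were not set against that of all fitted regions. Separated regions were spread over the annotation. Promoter regions (within 3 kb of a start) numbered 16307, of which 724 (4.44%) were higher and 490 (3%) lower. Intron regions gave 636 (4.65%) and 355 (2.6%) of 13664, exon regions 85 (4.78%) and 44 (2.47%) of 1780, and intergenic regions 721 (4.58%) and 474 (3.01%) of 15736, each close to the shares over all regions. Leaving out WT replicate 1, the classes ran from 6.65% (intron) to 7.47% (exon) higher and from 6.21% (promoter) to 6.98% (intergenic) lower.

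The largest difference among the separated autosomal regions was at Ppm1h, which encodes a metal-dependent protein phosphatase. The intronic region chr10:122885959-122886841 was at 0, 0, 1.83 and 0 in WT replicates 1 to 4 and at 63.3, 67.9, 62.1 and 45.4 in TET2KO. Every TET2KO library lay far above every WT library, a difference of 59.2 ± 8.28 (SE, n = 4 per genotype; limma adjusted p = 0.188). Without WT replicate 1 the difference was 57.9 and passed the test (limma adjusted p = 0.0346), as it did under no other alternative run. In the full lists a weaker interval was present there in 3 of 4 WT libraries. Close to it, the second promoter of Ppm1h (chr10:122894313-122895408) ranked at 69.4, 66, 61.2 and 49.4 in WT and at 31, 31.4, 17.2 and 20 in TET2KO, a difference of −36.6 ± 7.03 (adjusted p = 0.343). Neighbouring regions of the same gene thus differed in opposite directions. Of the 15 fitted regions at the gene, 2 were higher and 3 lower.

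Next in size among the regions ranked higher came those at Tmem17, a protein of the ciliary transition zone, at Atf2, a bZIP transcription factor that binds cyclic AMP response elements, and at Glis1, a Krüppel-like zinc finger factor. The Tmem17 region (chr11:22665902-22666704) was at 0, 0, 0 and 56.4 in WT and at 75.3, 69, 79.3 and 66.2 in TET2KO (difference 58.4 ± 10.8, adjusted p = 0.343). The Atf2 region (chr2:73818700-73819377) was at 0, 0, 5.36 and 63.6 in WT and at 80.3, 69, 80.7 and 70.8 in TET2KO (57.9 ± 11.1, adjusted p = 0.343). The Glis1 region (chr4:107457443-107458058) was at 0, 0, 12.8 and 60.7 in WT and at 74.1, 73.2, 80.6 and 71.2 in TET2KO (56.4 ± 10.1, adjusted p = 0.343). At all 3 the genotypes did not overlap, but WT replicate 4 ranked near the TET2KO libraries and away from the other WT libraries. Without WT replicate 4 all 3 passed limma (adjusted p = 0.0244 for each). The Il22 region, 25.9 kb from the gene of an interleukin of barrier tissues, was at 0, 0, 19.3 and 33.2 in WT and at 52.5, 51.2, 48.8 and 48.3 in TET2KO. The Nrp2 intron region, in the gene of a co-receptor for semaphorins and VEGF, was at 0, 3.08, 0 and 0 in WT and at 57.8, 31.6, 32.5 and 36 in TET2KO. The other 6 higher regions with the largest differences lay at Ube2ql1 (45.8), Akirin1 (44.5), Mdfic (41.8), Plac9b (40.4), Vrk2 (40.1) and Ift140 (37.2), the values being TET2KO minus WT in rank position.

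Among the regions ranked lower, the largest difference was 391 kb from Sox9, the gene of an HMG-box factor of cartilage and other progenitors. This region (chr11:113172487-113173235) was at 79.7, 76.2, 73.4 and 76.8 in WT and at 0, 2.73, 0 and 67 in TET2KO, a difference of −59.1 ± 11.7 (adjusted p = 0.343). TET2KO replicate 4 ranked near the WT libraries there. The Uggt2 region (chr14:118982090-118983189) had the same layout, with 67.8, 79, 77.6 and 71.7 in WT and 19.5, 0, 0 and 62 in TET2KO (−53.6 ± 11, adjusted p = 0.37). UGGT2 is a glucosyltransferase that tags misfolded glycoproteins in the endoplasmic reticulum. The Cyp4a12a region (chr4:115280281-115281092) was at 64.5, 67.7, 56.6 and 46 in WT and at 0, 0, 0 and 13.8 in TET2KO (−55.2 ± 8.59, adjusted p = 0.314), so that no library overlapped. Cyp4a12a encodes a cytochrome P450 that hydroxylates fatty acids. Without TET2KO replicate 4 the Sox9 (limma adjusted p = 0.0105) and Uggt2 (adjusted p = 0.0449) regions passed the test, and Cyp4a12a did not.

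The promoter region of Ccr4, a chemokine receptor of T cells, which lies within Trim71 (chr9:114507244-114508044), was at 68.1, 56.1, 33.2 and 16.1 in WT and at 0 in all 4 TET2KO libraries (−43.4 ± 9.36, adjusted p = 0.466). The region 95.1 kb from Tgfbr2, the type II receptor for TGF-β, was at 75.2, 61.6, 75.4 and 73.6 in WT and at 6.64, 3.56, 48.9 and 53.4 in TET2KO (−43.3 ± 8.08, adjusted p = 0.343). All TET2KO libraries were below all WT libraries at Tgfbr2, but the gap was −63.3 in replicates 1 and 2 and −23.3 in replicates 3 and 4. The promoter region of Chga, which encodes the granule protein chromogranin A, was at 54, 37.6, 68.9 and 58 in WT and at 0, 0, 13.6 and 22.5 in TET2KO. The remaining lower regions lay at Dip2a (−48.1, in an exon of Pcnt), Stc2 (−48), Cse1l (−47.1, in Arfgef2), Gxylt1 (−46.7), F13a1 (−45.3) and Lrfn2 (−42.4). At Stc2 the genotypes were separated within each pair but overlapped across pairs, with TET2KO replicate 4 at 62.4 and WT replicate 1 at 60. All 24 regions kept their direction without WT replicate 1 and under every other alternative run. Some lay near one another, with Ccr4 and Tgfbr2 1.76 Mb apart on chromosome 9, Tmem17 and Vrk2 4.14 Mb apart on chromosome 11, where Stc2 followed 4.58 Mb on, and Il22 and Ppm1h 4.71 Mb apart on chromosome 10.

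**Figure D1:**
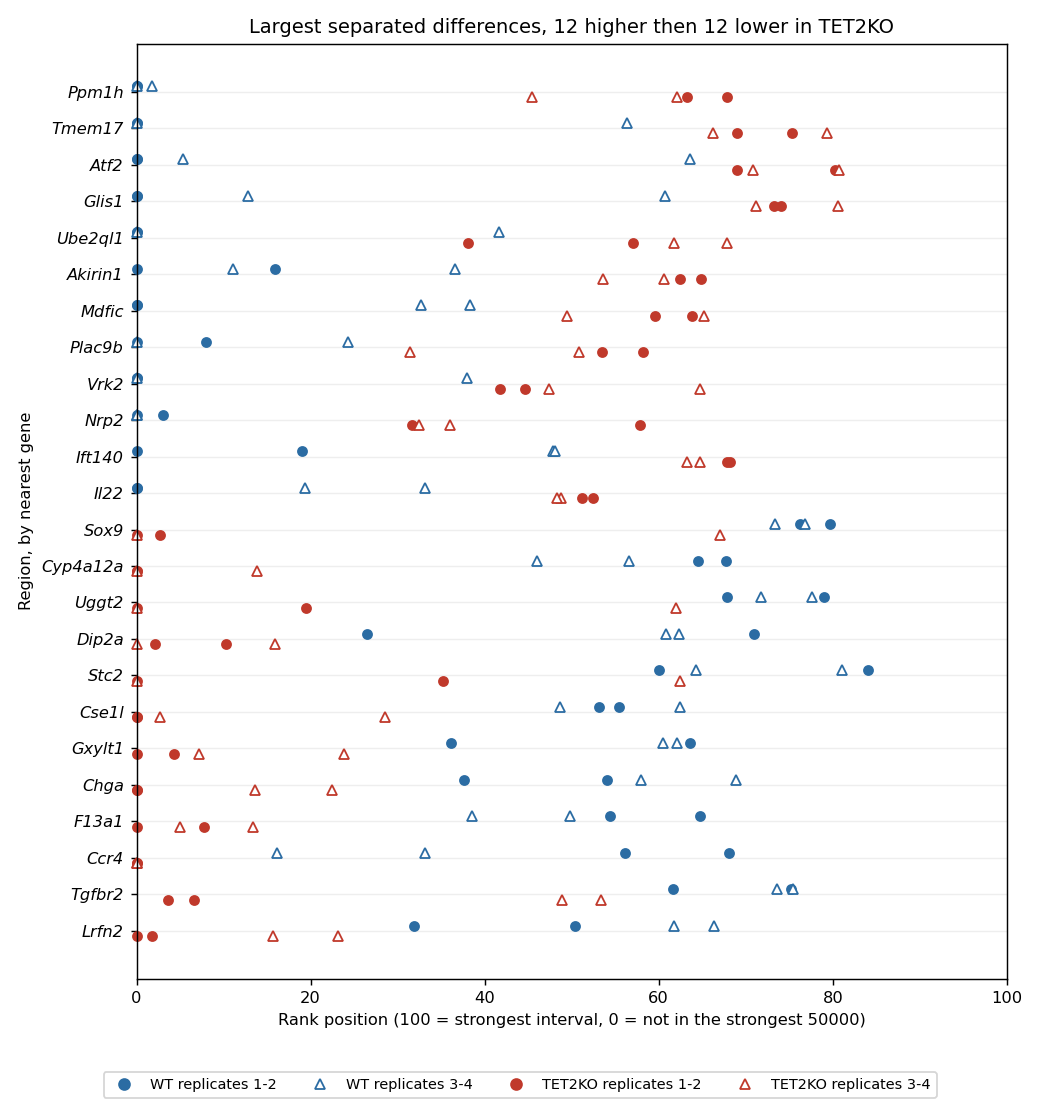
Rank position (horizontal axis, 0 to 100) of the 12 separated regions with the largest differences in each direction, with 1 point per library (blue WT, red TET2KO, circles replicates 1 and 2, triangles replicates 3 and 4). The TET2KO points at Ppm1h lie between 45.4 and 67.9 with WT at or below 1.83, while single libraries such as WT replicate 4 at Atf2 (63.6) and TET2KO replicate 4 at Sox9 (67) lie with the other genotype.

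The same regions were then read in the p300-deleted libraries, which share no library with the comparison above but share the germline Tet2 deletion. Of the 2166 higher regions, 326 (15.1%) were separated and higher again in P300KO_TET2KO against P300KO, where 3020 (6.36%) of all regions were higher, and 44 (2.03%) were lower. These 326 made up 10.8% of the regions higher in the p300-deleted comparison. Of the 1363 lower regions, 204 (15%) were lower again, against 4.67% of all regions, and 37 (2.71%) were higher. The 204 made up 9.2% of the regions lower in the p300-deleted comparison. Both shares in the matching direction were thus above those of all regions, and both shares in the opposite direction below them. In mean position, 72.1% of the higher regions ranked above P300KO in P300KO_TET2KO (54% of all regions) and 63.3% of the lower regions ranked below it (45.2% of all). When the regions were chosen without WT replicate 1, 12.6% of the higher and 11.7% of the lower ones were separated in the same direction. The median difference in the p300-deleted libraries was smaller than where the regions were chosen, at 2.74 for the higher and −1.51 for the lower regions.

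**Figure D2:**
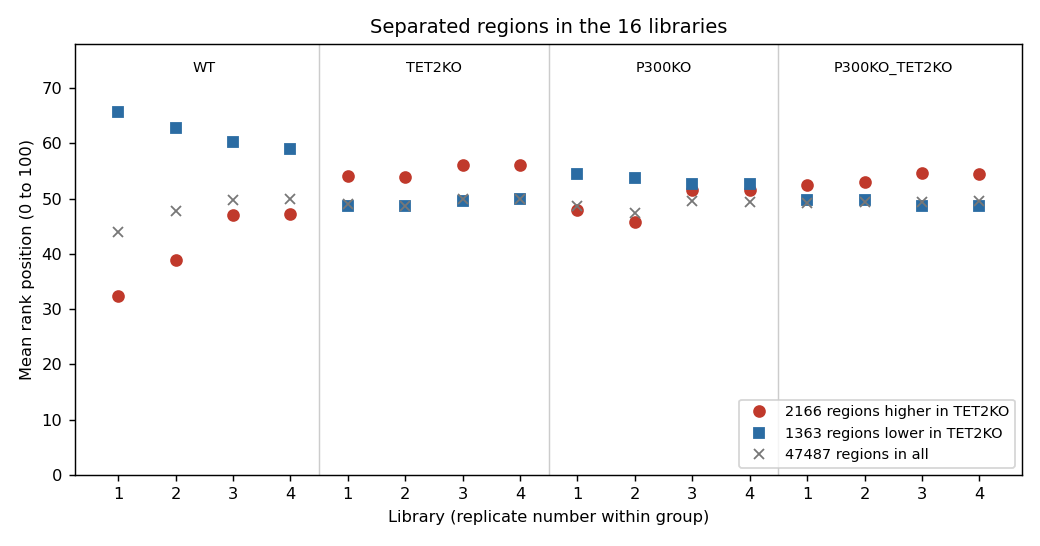
Mean rank position (vertical axis, 0 to 100) in each of the 16 libraries (horizontal axis) of the 2166 regions higher in TET2KO, the 1363 regions lower in TET2KO and all 47487 regions. WT and TET2KO positions chose the regions; in P300KO_TET2KO the higher regions averaged 52.5 to 54.7 against 45.8 to 51.5 in P300KO, and the lower ones 48.6 to 49.7 against 52.6 to 54.4.

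Of the 24 named regions, 9 of the 12 higher and 10 of the 12 lower were also separated in the same direction in the p300-deleted libraries. The Ppm1h intron region was at 8.53, 2.62, 0 and 19.4 in P300KO and at 67.3, 65.8, 62.2 and 53 in P300KO_TET2KO, and the 3 lower regions of the gene were lower there too. The second higher region of the gene (chr10:122794170-122795016, 3.73 in TET2KO minus WT) was not separated there and differed by −1.71. The Vrk2 region was at 0 in all 4 P300KO libraries and at 67, 47.9, 54.8 and 61.6 in P300KO_TET2KO. The Uggt2 region was at 76.6, 66.2, 74.7 and 68.5 in P300KO and at 0 in all 4 P300KO_TET2KO libraries. At the Ppm1h intron, Vrk2 and Uggt2 regions the 8 libraries with Tet2 deleted thus did not overlap the 8 without. The same held at the Sox9, Tmem17, Atf2, Il22, Dip2a, F13a1 and Ccr4 regions, by narrow margins at Sox9, Tmem17 and Il22. The Sox9 region lay at 68.5, 74.2, 75.8 and 77.2 in P300KO and at 14.5, 0, 0 and 8.8 in P300KO_TET2KO. The 5 named regions that were not separated there were those at Ube2ql1, Plac9b, Nrp2, Cse1l and Chga, and at Plac9b the means went the other way (43.2 in P300KO and 30.7 in P300KO_TET2KO).

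Positions were next averaged over the regions assigned to each gene (within 100 kb of the nearest start, at least 3 regions). No gene passed the limma test among 6200 (lowest adjusted p = 0.545), with 422 higher and 119 lower at an unadjusted p under 0.05. By separation, 443 genes (7.15%) were higher and 150 (2.42%) lower, and without WT replicate 1 the counts were 575 (9.27%) and 401 (6.47%). The median gene differed by 1.71. Promoters alone gave 560 (4.45%) higher and 364 (2.89%) lower of 12588, and 0 passed limma (lowest adjusted p = 0.671, with 543 and 311 at an unadjusted p under 0.05).

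The gene with the largest mean difference was Ube2ql1, related to ubiquitin-conjugating enzymes, at 18.4, 30.8, 58 and 27.6 in WT and at 54.4, 64.4, 63.1 and 65.5 in TET2KO (28.2 ± 5.98, adjusted p = 0.545). Marco, a scavenger receptor of macrophages, was at 0, 8.98, 45.7 and 45.5 in WT and at 36.3, 41.9, 55 and 53.9 in TET2KO, a difference of 21.7 ± 4.91. The WT spread at Marco followed the deposit sets, and the gap was 34.6 in replicates 1 and 2 and 8.82 in replicates 3 and 4. Glis1 averaged 21.6 ± 4.49 higher, Il31, a T-cell cytokine, 21.5 ± 5.3 and Fst, the activin-binding protein follistatin, 19.5 ± 5.56. Mtf1, the metal-responsive transcription factor, averaged 18.2 ± 4.52 higher. Also among the 10 largest were Elavl4 (23), Gm20075 (20), Hdhd3 (20) and Dusp26 (19.5), the first 3 of them not separated. On the lower side, Wnt4, a secreted Wnt ligand, was at 35.1, 36.9, 46.7 and 45.2 in WT and at 16.7, 16.8, 34.2 and 31.2 in TET2KO, a difference of −16.3 ± 2.89. No TET2KO library reached the lowest WT library at Wnt4. Ccr4 averaged −17.3 ± 5.96, the clock-related factor Npas2 −14.3 ± 4.32 and the zinc finger gene Zfp386 −14.7 ± 4.56. Stc2 (−17.5), Pabpc2 (−17.3), Ptprh (−16), Avpr1b (−15.6), Creb3l2 (−14.6) and Unc5a (−13.7) completed the 10, of which Stc2, Avpr1b and Unc5a were not separated. Adjusted p-values were 0.545 for all of these genes except Unc5a (0.583). Dusp26 (9.66), Ccr4 (−10.8), Ptprh (−8.91) and Zfp386 (−9.62) moved by over 1.5 times without WT replicate 1.

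Gene lists for hematopoietic pathways were read region by region against the shares over all regions, 4.56% higher and 2.87% lower. NF-κB subunits and inhibitors had the largest share of higher regions of the 30 lists, with 8 of 66 (12.1%) higher and 1 (1.52%) lower, or 10 (15.2%) and 3 (4.55%) without WT replicate 1, where 7% and 6.5% of all regions were separated. The median difference was 2.08 over its regions, against 0.832 over all regions. The 8 were a pair of regions at each of Tnfaip3, the deubiquitinase A20 that ends NF-κB signalling, Birc3, a ubiquitin ligase of the pathway, Tnip1, an A20 partner, and Nfkbiz, a nuclear IκB protein. The Tnfaip3 region 58.1 kb from the start was at 0, 0, 35.4 and 47.1 in WT and at 28.2, 30.6, 50.3 and 57.4 in TET2KO (21 ± 8.28). The Birc3 promoter was at 84.8, 88.2, 94.2 and 92.3 in WT and at 94.2, 90.6, 95.3 and 95.9 in TET2KO (4.13 ± 1.3). WT and TET2KO ranges met or overlapped across the deposit sets at both, and within each set they did not. Without WT replicate 1 the differences at this Tnfaip3 region and the Birc3 promoter were 19.3 and 3.1. However, 3 of the 8 moved by over 1.5 times. They were the other Tnfaip3 region (22.3, or 5.8 without that library), 1 at Tnip1 (11.9, or 3.2) and 1 at Nfkbiz (8.23, or 3.63). The 1 lower region, 27.1 kb from Nfkbia, which encodes the inhibitor IκBα, was at 65.2, 27.2, 36.9 and 33.6 in WT and at 12.4, 6.99, 14.6 and 10.5 in TET2KO (−29.6 ± 9.41). It was lower in the p300-deleted libraries too, by a mean difference of −39.9, whereas of the 8 higher regions 1 at Tnfaip3 was higher there. None of these regions passed the limma test (adjusted p 0.667 to 0.714).

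Inflammatory cytokines and chemokines had 5 of 49 regions (10.2%) higher and 2 (4.08%) lower, with a median difference of 1.97, or 6 (12.2%) and 2 (4.08%) without WT replicate 1. The higher ones lay at Il1b (19.4, or 10.4 without WT replicate 1), Cxcl10 (17, or 10), Cxcl2 (15.8), Csf1 (5.65) and Ccl5 (4.9) and the lower ones at Tgfb1 (−12) and Ccl3 (−11.2), in TET2KO minus WT rank position. At the promoter of Cxcl10, an interferon-induced chemokine, positions were 34.5, 64.2, 59.6 and 57.3 in WT and 75.6, 67.9, 68.3 and 71.9 in TET2KO, with no overlap. Csf1, the macrophage colony-stimulating factor, had promoter positions of 76.1, 76.8, 75.2 and 76.3 in WT and 82, 80.2, 82.1 and 82.7 in TET2KO, again with no overlap and with little spread. Interferon-stimulated genes had 4 of 57 regions higher (7.02%) and 3 lower (5.26%), and a median difference of 1.77, or 4 (7.02%) and 5 (8.77%) without WT replicate 1.

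DNA methylation and demethylation genes, the pathway of TET2 itself, had the largest share of lower regions, 7 of 62 (11.3%) against 2 (3.23%) higher, or 10 (16.1%) and 3 (4.84%) without WT replicate 1. The lower regions lay at Zbtb38, a reader of methylated DNA, with a distal region (−27.7) and its promoter (−2.77), at Mbd2, another reader (−13 and −1.67), at the cytidine deaminase Apobec3 (−17.6), at a promoter region of the TET2 paralogue Tet3 (−4.51) and at the promoter of Tdg (−1.44), the glycosylase that excises oxidised methylcytosine. The Tet3 promoter region was at 77.6, 82.3, 76.1 and 76.8 in WT and at 74.3, 75.4, 71.4 and 73.7 in TET2KO, all TET2KO libraries being below all WT libraries by a few positions. Over its 7 regions, however, Tet3 averaged 4.78 ± 3.29 higher in TET2KO (1.78 without WT replicate 1) and was not separated. The higher regions lay at the promoter of the maintenance methyltransferase Dnmt1, at 0, 34, 53.4 and 48 in WT and 47.5, 46.9, 58.9 and 61.6 in TET2KO, and at a second distal Zbtb38 region (4.84). The Dnmt1 difference of 19.9 ± 8.56 was 11 without WT replicate 1, which was at 0, and that of Apobec3 was −10.6. Of the 9 regions, the distal Zbtb38 (−20.1) and Mbd2 (−11.4) regions were also lower in the p300-deleted libraries, and the second distal Zbtb38 region went the other way there (−3.26). The median difference over the 62 regions was 0.872, near the 0.832 of all regions, and over the list's 7 fitted genes −1.84, so the lower regions did not shift the list as a whole alike.

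Stem cell transcription factors had 5 of 146 regions higher (3.42%) and 3 lower (2.05%), below the shares over all regions in both directions, as were the 6 (4.11%) and 7 (4.79%) without WT replicate 1. The region 27.6 kb from Gata2, a factor required by stem cells, was at 70.6, 73.2, 70.8 and 65.1 in WT and at 67.1, 33.3, 32.2 and 39.3 in TET2KO (−27 ± 6.78), with TET2KO replicate 1 among the WT values, and it was −27 in the p300-deleted libraries as well. Higher regions lay at Etv6 (26.5), Meis1 (16.6 and 2.89), Bmi1 (10.2) and Fli1 (8.58), and the other lower regions at Fli1 (−8.68) and Gfi1 (−7.19), so that Fli1 had a region in each direction. The higher Fli1 region was at 3.79 without WT replicate 1. Myeloid regulators had 5 of 119 higher (4.2%) and 7 lower (5.88%), or 8 (6.72%) and 17 (14.3%) without WT replicate 1. A region within the promoter window of Spi1, the gene of the myeloid master factor PU.1, was at 0, 0, 0 and 15.7 in WT and at 30.7, 33.4, 22.4 and 18.6 in TET2KO (22.4 ± 7.35), while regions at Cebpb (−20.3), Klf4 (−19.4) and Cebpa (−10.3) were lower. Another Cebpb region was higher (9.8, or 2.64 without WT replicate 1), as were a distal region of Zeb2 (28.2, or 16.8) and its promoter (6.08). A region at Csf1r, the macrophage colony-stimulating factor receptor, was higher (24.1) and another lower (−17.7). Over its 7 regions Spi1 averaged 7.23 ± 2.75 higher.

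Lymphoid priming genes had 0 of 92 regions higher and 5 lower (5.43%), and without WT replicate 1 0 higher and 6 lower (6.52%), the latter at the 6.5% of all regions. A region in an intron of Dntt, the terminal transferase of early lymphoid cells, was at 69.5, 75.4, 77.5 and 77.2 in WT and at 14.3, 47.4, 66 and 67.6 in TET2KO (−26.1 ± 7.18), with no overlap, and was −25.8 in the p300-deleted libraries. The others lay at a second Dntt region (−5.81), Ikzf1 (−15.9), Notch1 (−4.15) and Gata3 (−3.41), the last 3 being at −10.5, −2.59 and −1.71 without WT replicate 1. In the mean over all its 4 regions Dntt was separated and lower (−8.85 ± 2.83), whereas Bcl11a, a factor of B-lymphoid priming, was separated and higher (8.8 ± 3.29). Notch signalling had 7 of 103 higher (6.8%) and 1 lower (0.971%), the higher ones at the ligand Dll4 (24.8), the receptors Notch4 (18.5) and Notch2 (6.17), the modifier Lfng (15.6 and 4.24), the feedback inhibitor Nrarp (4.93) and the co-activator Maml2 (4.22). The Notch counts were 11 (10.7%) and 4 (3.88%) without WT replicate 1. Leaving it out also lowered the differences at Dll4 to 13.7, Notch4 to 7.82, the first Lfng region to 7.75 and Maml2 to 2.12, WT replicate 1 being at 0 at the first 3 of these. Bcl2 family genes had 5 of 58 higher (8.62%) and 2 lower (3.45%), the higher ones including the pro-apoptotic Bik (26.2) and Bmf (25.6) and the pro-survival Mcl1 (9.12 and 2.25, the latter 1.34 without WT replicate 1) and the lower ones being at the pro-apoptotic Pmaip1 (−17.6) and Bok (−9.61), or 8 (13.8%) and 2 (3.45%) without WT replicate 1. TGF-β signalling had 3 of 130 higher (2.31%) and 6 lower (4.62%), and surface and homing genes 2 of 103 (1.94%) and 5 (4.85%). The higher surface and homing regions lay at the promoters of Icam1 (26.1) and Cd44 (10.2), and the lower ones included an intron of Cd44 (−19.2) and the promoters of Cd34 (−6.18) and Cxcr4 (−6.94). Counted without WT replicate 1, these were 7 (5.38%) and 12 (9.23%) for TGF-β signalling and 3 (2.91%) and 11 (10.7%) for surface and homing genes.

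Several signalling lists had few separated regions for their size. Jak-Stat and Socs genes had 1 of 87 higher (1.15%), at Socs3 (23), and 2 lower (2.3%), at Stat5b (−10.3) and Jak1 (−1.6). Ras-MAPK genes had 2 of 89 higher (2.25%), at Spry1 (15.5) and Mapk3 (11.6), and 1 lower (1.12%), at Dusp6 (−4.65). AP-1 and early response genes had 3 of 117 higher (2.56%), at Fosb (23.1), Ier2 (23) and Egr3 (19.2), and 2 lower (1.71%). Counted without WT replicate 1, against 7% and 6.5% of all regions, these became 3 (3.45%) and 4 (4.6%) for Jak-Stat, 3 (3.37%) of each for Ras-MAPK and 7 (5.98%) of each for AP-1, and the differences were 9.47 at Spry1, 14.7 at Fosb and 12.6 at Ier2. Wnt signalling had 2 of 86 (2.33%) in each direction, cell cycle regulators 2 of 93 (2.15%) higher and 3 (3.23%) lower, cytokine receptors 3 of 98 (3.06%) and 4 (4.08%), PI3K-Akt signalling 4 of 83 (4.82%) and 1 (1.2%), and Polycomb and trithorax genes 4 of 76 (5.26%) in each direction. In the order just given, the counts without WT replicate 1 were 4 and 4, 4 and 8, 5 and 7, 4 and 3, and 5 and 7. Erythroid genes had 3 of 44 higher (6.82%) and 1 lower, megakaryocyte and platelet genes 2 of 39 (5.13%) and 0, and cohesin and Ctcf genes 1 of 20 (5%) and 0, or 3 and 2, 4 and 3, and 1 and 1 without WT replicate 1.

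DNA replication genes had 3 of 31 (9.68%) and DNA repair genes 3 of 39 (7.69%) higher, with 0 lower in each, but without WT replicate 1 replication genes had 3 higher and 3 lower (9.68% each) and repair genes 3 (7.69%) and 1 (2.56%). The repair regions lay at Parp1 (28.3), Trp53 (26.3) and Chek2 (1.71, or 1.12 without WT replicate 1), and in the mean over regions Trp53, the gene of the p53 tumour suppressor, averaged 10.2 ± 3.43 higher. Lysine acetyltransferases and deacetylases had 4 of 56 higher (7.14%) and 2 lower (3.57%), with the same counts without WT replicate 1. A promoter region of the deacetylase gene Hdac7 was at 0, 1.89, 0 and 5.52 in WT and at 37.8, 34, 26.4 and 39 in TET2KO (32.4 ± 7.34, adjusted p = 0.571), and the p300-deleted difference there was 25.3. The lowest TET2KO library at Hdac7 was thus well clear of the highest WT library. The Hoxb cluster had 1 of 15 higher, a region 34.4 kb from Hoxb1 (22.3, and 24.3 in the p300-deleted libraries), and the Hoxa cluster 1 of 13 lower, at Hoxa4 (−3.85). The Hoxb regions had the largest median difference of any list (8.36), on a single separated region. Hoxb had 2 higher and 0 lower and Hoxa 1 of each without WT replicate 1. Granule protein genes of neutrophils and the splicing factors mutated in myelodysplasia had 0 separated of 27 and of 13 regions, and ribosomal protein genes 1 of 43, which was lower. Ribosomal protein genes without WT replicate 1 had 2 higher (4.65%) and 5 lower (11.6%), granule protein genes 0 and 2 (7.41%), and splicing factors 1 (7.69%) and 0. Of the list genes fitted as means, none passed the limma test.

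**Figure D3:**
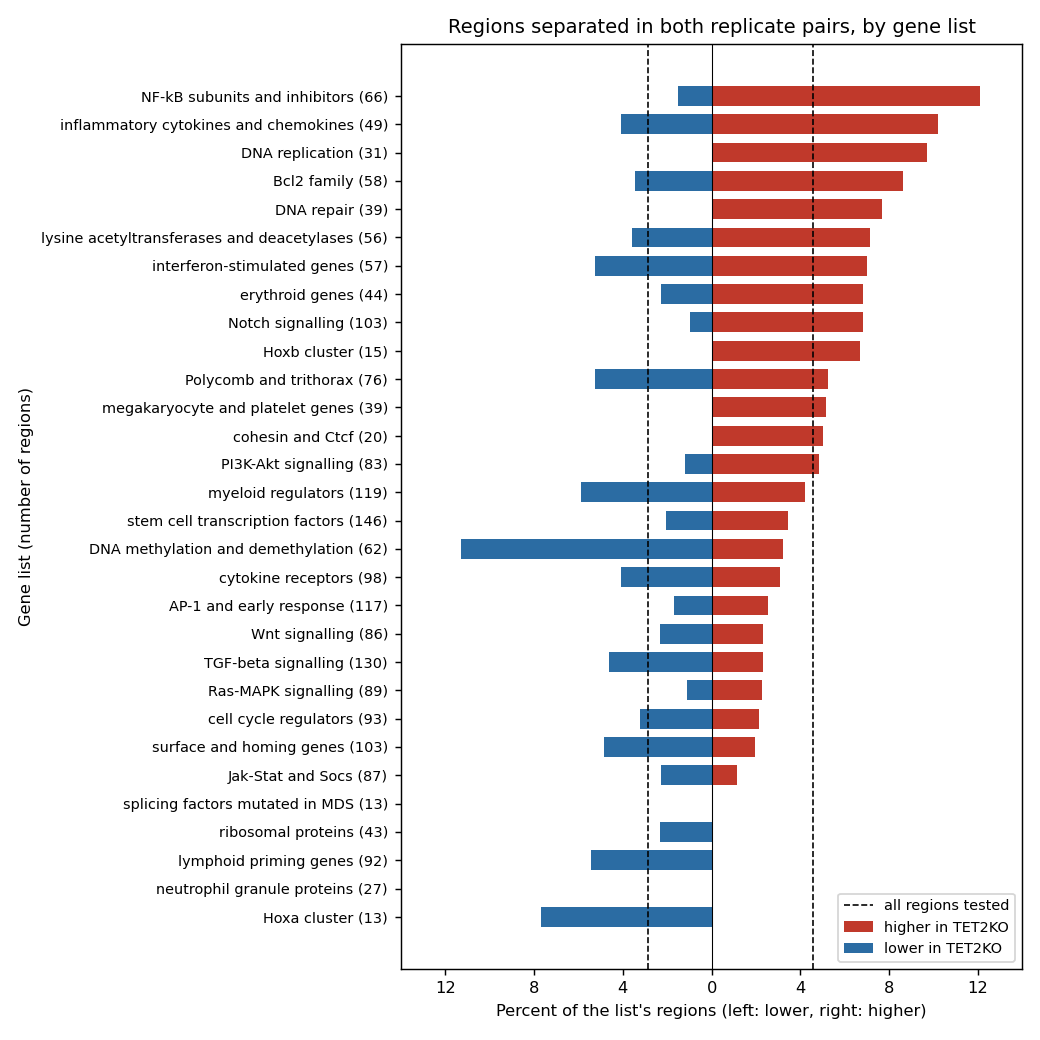
Percent of each list's regions (horizontal axis) that were separated in both replicate pairs, higher in TET2KO to the right and lower to the left, with the number of regions in brackets and dashed lines at the shares over all regions (4.56% and 2.87%). NF-κB subunits and inhibitors reach 12.1% on the right and DNA methylation and demethylation genes 11.3% on the left, on 8 and 7 regions.

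Regions were also sorted by short consensus strings of transcription factors. They were searched on both strands in the 200 bp around the midpoint of each region, which need not be its summit. Over the 31180 distal regions the mean rank position was 40.3 ± 1.75 in TET2KO and 38.6 ± 4.19 in WT (SD, n = 4), a difference of 3.4 in replicates 1 and 2 and −0.126 in replicates 3 and 4. The Nfkb string, which stands for the site of RelA and p50 dimers, was found in 305 distal regions (0.978%) and 0.932% of promoter regions. Those regions averaged 29.9, 34.5, 44.5 and 42.8 in WT and 39, 39.5, 48.5 and 47.9 in TET2KO. TET2KO lay above WT within both deposit sets, by 7.04 and 4.62, the largest difference of the 20 strings in each set. The exact two-sided permutation test over libraries gave p = 0.229 (Benjamini-Hochberg adjusted over the 20 strings 0.857), and permuting within sets gave p = 0.0556, the smallest that its 36 regroupings allow. No string passed the test. Of the 305 regions, 45 (14.8%) were separated and higher and 4 (1.31%) lower, against 4.52% and 2.81% of distal regions without the string. Without WT replicate 1 the shares were 18.4% and 4.26%, against 6.72% and 6.67%, and the mean difference was 3.16. Promoter regions with the string gave 16 of 152 (10.5%) higher and 1 (0.658%) lower, against 4.38% and 3.03% of promoter regions without it. In the p300-deleted libraries 12 of those 152 (7.89%) were higher, near the 7.15% of promoter regions without the string. Of the 305 distal regions 30 (9.84%) were higher there, against 5.9% without the string, with differences of 4.3 and 0.223 in the deposit sets.

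Several named regions held the Nfkb string. It was found at Tmem17, Nrp2 and Ift140, 3 of the 12 largest higher regions. The 16 separated and higher promoter regions with it included those of Cxcl10 (17), the neutrophil chemokine Cxcl3 (11.9), the dendritic cell marker Cd83 (6.1) and the BH3-only gene Bmf (25.6). Others were at Lhx2, Grik2, Rasgef1a and Atp5g1, and the 1 lower was at Tmem184b (−4.09). At Cxcl3 the genotypes overlapped across deposit sets (WT replicate 1 at 41.4, TET2KO replicate 4 at 33.8). The p300-deleted difference at Cxcl3 was −8.98. Within the list of NF-κB subunits and inhibitors 4 of the 66 regions held the string, and 0 of those 4 were separated, so the list and the string drew on different regions. Strings for Ap1 (TGANTCA) and for Spi1 (GAGGAAGT), both common in HSPC enhancers, were next. By the same exact permutation test Ap1, at 3.94 and 1.21 in the deposit sets, had p = 0.4 (adjusted 0.857, within sets 0.0556), with 146 of 2484 regions (5.88%) higher and 46 (1.85%) lower. Spi1 differed by 3.67 and 0.675 (adjusted p = 0.857), with 132 of 2158 regions (6.12%) higher and 58 (2.69%) lower, against 4.62% and 2.8% of all distal regions. Without WT replicate 1 the mean difference of Ap1 was 0.53, down from 2.57, and that of Spi1 turned to −0.384. The counts were then 208 (8.37%) higher and 129 (5.19%) lower for Ap1 and 173 (8.02%) and 139 (6.44%) for Spi1, against 6.83% and 6.65% of all distal regions. The Gata string AGATAAG differed by 4.39 and −1. Of the 20 strings, Nfkb, Ap1, Spi1, Stat and Nrf1 had differences of the same sign in both deposit sets. A string match does not show that the factor binds.

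**Figure D4:**
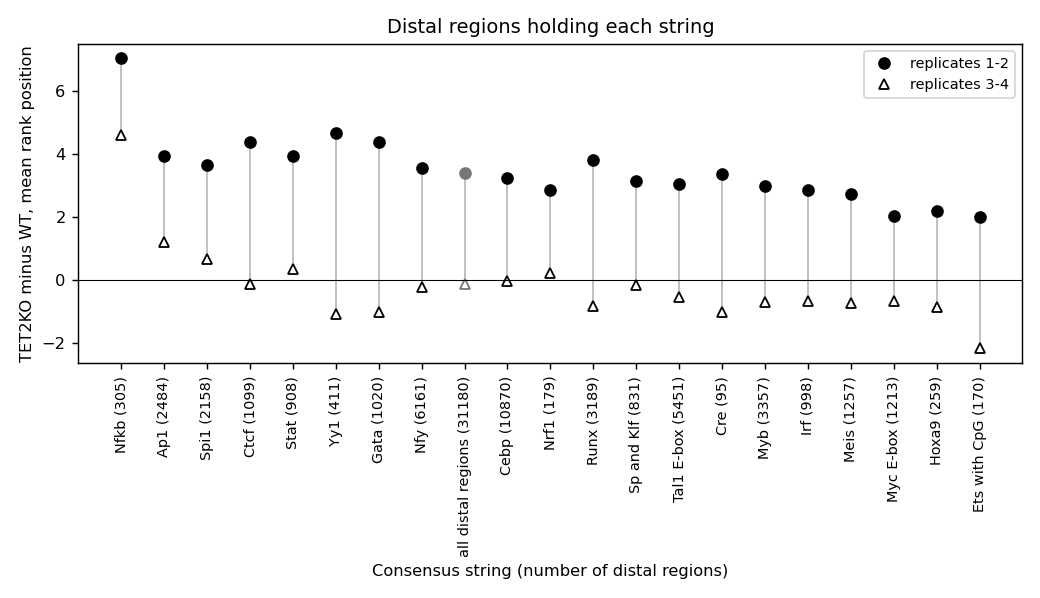
TET2KO minus WT in mean rank position (vertical axis) of distal regions holding each of 20 consensus strings and of all distal regions (grey), with circles for replicates 1 and 2 and triangles for replicates 3 and 4. The Nfkb string lies highest in both sets, at 7.04 and 4.62, and all distal regions at 3.4 and −0.126.

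The make-up of the strongest 50000 intervals did not differ detectably between genotypes. Promoters took 35.5 ± 1.53% of them in TET2KO and 35.2 ± 1.64% in WT, introns 28.3 ± 1.17% and 28.2 ± 1.22%, and intergenic DNA 32.8 ± 0.299% and 33.1 ± 0.595% (SD, n = 4). The mean CpG content was 3.79 per 100 bp in both, with SDs of 0.125 and 0.0941. Of the 7 measures, none passed the exact permutation test (adjusted p 0.833 or 1), whose smallest p is 0.0286. The median width was 579.5 ± 70.6 bp in TET2KO and 509.9 ± 145 bp in WT (p = 0.4, exact permutation), and the difference of 69.6 bp was 7.67 bp without WT replicate 1.

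CpG content, the sequence feature closest to TET2's activity, varied among the separated promoters more than among distal regions. The 490 lower promoter regions averaged 9.34 CpG per 100 bp and a GC content of 67%, against 7.22 and 62.6% over all 16307 promoter regions, and the 724 higher ones averaged 5.96 and 60.8%. Lower promoter regions also ranked higher in the 8 libraries as a whole, with a median mean position of 80.1 against 76 over all and 68 for the higher ones. Whether CpG content or rank goes with the difference was not tested. Distal regions averaged 1.9 (higher), 2.01 (lower) and 1.85 (all) CpG per 100 bp. Sorted by CpG content, distal regions with under 1 CpG per 100 bp were separated in 4.35% (higher) and 2.31% (lower), and those with 8 or more in 5.12% and 3.07%. Without WT replicate 1 the higher share was 6.26% in the lowest and 9.06% in the highest of these CpG classes, with the classes between in order, and the lower share was 5.65% and 6.14%, with its largest value (7.48%) at 2 to under 4 CpG per 100 bp.

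Tet2 itself lies on the minus strand at chr3:133463679-133545139. Its 1 fitted region, the promoter (chr3:133543849-133545379), was at 78.4, 82.2, 79.6 and 79.7 in WT and at 82.7, 82.5, 80.5 and 75.3 in TET2KO, a difference of 0.254 ± 2.08 (adjusted p = 0.984). The promoter was therefore open in both genotypes, and it does not check the labels, since the sources used here do not place the deleted part of Tet2 within it. Regions within 20 Mb of Tet2 were kept apart, since DNA close to a targeted allele is inherited with it. Of these 559 regions, 24 (4.29%) were higher and 28 (5.01%) lower, or 34 (6.08%) and 55 (9.84%) without WT replicate 1, and 0 passed limma. The share of lower regions was above the 2.87% of the other autosomal regions and that of higher regions close to its 4.56%. On chromosomes X and Y, where the mix of sexes in each pool cannot be told apart from genotype, 54 of 952 regions (5.67%) were higher and 11 (1.16%) lower, or 79 (8.3%) and 34 (3.57%) without WT replicate 1.

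One higher region near Tet2 lay 29.6 kb from Sec24b, which encodes a coat protein of vesicles leaving the endoplasmic reticulum. It was at 0 in all 4 WT libraries and at 21, 41.5, 42 and 49.1 in TET2KO (chr3:130090222-130090871, 38.4 ± 7.99, adjusted p = 0.403). In P300KO it was again at 0 in all 4 libraries and in P300KO_TET2KO at 30.9, 31.8, 38.9 and 28.3. No interval was listed there in any of the 8 full lists with intact Tet2, and one was listed in all 8 with Tet2 deleted. The region 66.1 kb from Dnttip2, in an intron of Bcar3, was at 71.3, 57.3, 57.7 and 58.6 in WT and at 18.4, 17.6, 29.6 and 9.89 in TET2KO (−42.4 ± 7.95, adjusted p = 0.343). It was lower in the p300-deleted libraries as well, as was the H2afz region (−27.7, and −19.4 in the p300-deleted libraries). At the distal Adgrl2 (−31.5 and −22.1) and Cdc14a (−27) regions, by contrast, all P300KO and P300KO_TET2KO libraries were at 0, so that WT alone ranked above the others. Higher regions also lay at Pdha2 (42), Frrs1 (27.7), Sh3glb1 (24.5) and Bdh2 (24.4, or 10.2 without WT replicate 1, which was at 0). Of these, Bdh2 was separated and higher in the p300-deleted libraries (6.53), Pdha2 was not separated there (22), and Frrs1 (0.598) and Sh3glb1 (−0.955) were not separated and differed little in the mean. Whether these differences go with the lost gene or with linked DNA cannot be told apart in this design.

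**Figure D5:**
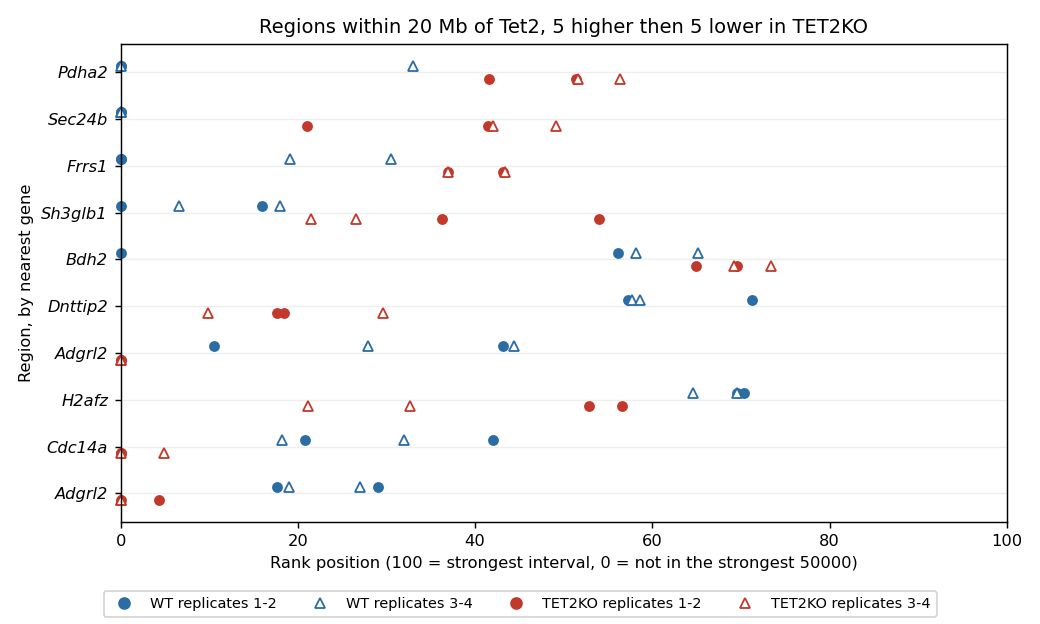
Rank position (horizontal axis, 0 to 100) of the 5 higher and 5 lower separated regions with the largest differences within 20 Mb of Tet2, with 1 point per library (blue WT, red TET2KO, circles replicates 1 and 2, triangles replicates 3 and 4). At Sec24b all WT points lie at 0 and TET2KO points between 21 and 49.1, while at Bdh2 WT replicate 1 (0) lies apart from the other WT libraries.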

How the data were processed

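The authors trimmed reads with cutadapt 1.9.1, aligned them to mm10 with Bowtie2 2.2.6, removed duplicates, shifted the ends for the transposase and called peaks per library with MACS2 2.1.0. The deposited lists hold each peak's −log10 p, −log10 q, fold and summit, and no peak in the 8 lists had a −log10 p under 2. Pooled or per-sample read counts were not analysed here, so depth is unknown, p-values measure the spread between libraries, and each library is a pool of mice. Here regions overlapping by at least 1 bp were merged, ranked by −log10 p, annotated with GENCODE M21 and fitted with limma 3.58.1 (R 4.3.3), with genotype and deposit set as terms and Benjamini-Hochberg adjustment. Tables were built in Python 3.11.15 with pandas 2.3.3 and scipy 1.17.1. The fit was tested on simulated data, where it missed most planted differences except the largest. The text names the 12 separated regions each way with the largest differences (5 near Tet2) and the 10 genes each way, and gives other genes of fixed lists and regions whose values were seen first. The members, the 41 gene lists and the 20 strings were chosen with earlier results of these data known. Alternatives were other list sizes (30000, 90000), rank by fold, minus log2 rank, filters, overlap, a replicate block and leaving out each library.

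Replicate numbers did not pair the libraries: the correlation of their deviations was −0.0248 for replicates 1 and 2 and −0.0974 for replicates 3 and 4.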

Additional observations from a re-analysis of the deposited data

Results flagged for a closer look

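Each value below lies further from the other libraries of its group than Dixon's criterion allows, or differs between the deposit sets. Of 164 groups of 4 libraries looked at, 22 held such a value, and chance alone gives about 1 in 20 groups where values vary freely. Rank positions stop at 0, so a group with 3 libraries at 0 meets the criterion whatever the value of the fourth, which was so for 9 of the 22. Values are rank positions unless another unit is given, and no explanation was tested.

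Of the higher regions, WT replicate 4 lay apart at Tmem17 (56.4), Atf2 (63.6) and Vrk2 (38), WT replicate 3 at Ppm1h (1.83) and Ube2ql1 (41.6), and WT replicate 2 (3.08) and TET2KO replicate 1 (57.8) at Nrp2. Of the lower regions, TET2KO replicate 4 lay apart at Sox9 (67) and Cyp4a12a (13.8), TET2KO replicate 3 at Cse1l (28.6) and WT replicate 2 at Gxylt1 (36.1) and Tgfbr2 (61.6). Near Tet2 the values were WT replicate 3 at Pdha2 (33), WT replicate 1 at Bdh2 (0) and Dnttip2 (71.3), WT replicate 4 at H2afz (64.6), TET2KO replicate 4 at Cdc14a (4.86) and TET2KO replicate 2 at the Adgrl2 region from 149225604 (4.34). For gene means they were TET2KO replicate 2 at Ccr4 (31.1), WT replicate 2 at Ptprh (14) and TET2KO replicate 4 at Unc5a (33.5). WT replicate 2 also had the lowest intergenic share of the strongest 50000 intervals (32.2%).

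Distal regions with the Myb string CAACTG averaged 2.99 above WT in replicates 1 and 2 and −0.696 in replicates 3 and 4, with both libraries of each set on the same side. All distal regions averaged 3.4 and −0.126, and in the mean 15 of the 20 strings were higher in the first set and lower in the second, so the pattern was not particular to Myb. The difference between the sets was not tested.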

How the results depend on the processing

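No call rests on the limma test, and separation is a count of order, not a test, so the lists above describe these libraries. The unknown depth and the differing WT replicate 1 limit them. The counts by class, gene list and string without that library, and the shares in the p300-deleted libraries without it (12.6% and 11.7%), were chosen after seeing the data. The replicate block gave 0 regions and 0 genes past the test, as without it, and does not enter the separated counts, which use the order of libraries alone.

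Leaving out 1 library at a time, between 0 and 3 regions were called higher (1 without WT replicate 1 and TET2KO replicate 3, 3 without WT replicate 4) and between 0 and 3 lower (3 without TET2KO replicate 4), and 0 to 1 genes higher (Ube2ql1 without WT replicate 3, adjusted p = 0.0236, and Glis1 without WT replicate 4, adjusted p = 0.0402). Named regions made up the calls without WT replicates 1 and 4 and 2 of the 3 without TET2KO replicate 4, and the call without TET2KO replicate 3 was not a named region. Separated regions numbered 3165 to 4204 higher and 1980 to 3085 lower, with fewer libraries to separate, the most higher ones without WT replicate 4 and the most lower ones without WT replicate 1. Replicates 1 and 2 alone gave 10657 higher and 6311 lower and replicates 3 and 4 alone 8314 and 7869. The strongest 30000 gave 1220 and 906, the strongest 90000 gave 3879 higher and 1813 lower, and requiring 50% of the region to be covered gave 2221 and 765.

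Differences in composition turned sign when libraries were left out for the promoter share (−0.225 to 0.95), the intron share (−0.234 to 0.583) and CpG content (−0.0453 to 0.0399). With the strongest 30000 the GC difference was 0.00453 and that of CpG −0.0141, and with the strongest 90000 the GC difference was 0.198. Among strings, with the strongest 30000 Ets with CpG (CCGGAAGT) was 0.648, Hoxa9 −0.947 and Yy1 −0.398, and with 90000 Ets with CpG was 0.703. Without single libraries the ranges that crossed 0 were Spi1 −0.384 to 4.04, Ets with CpG −2.49 to 1.08, Runx −0.992 to 3.44, Tal1 E-box −0.748 to 2.64, Myc E-box −0.895 to 1.92, Cebp −0.287 to 2.6, Irf −0.733 to 2.05, Myb −0.754 to 2.28, Hoxa9 −1.17 to 1.9, Meis −0.807 to 2.22 and Nfy −0.0803 to 2.72, each lowest without WT replicate 1, whereas Nfkb ran from 3.16 to 8.02. With promoter regions only, the genes Mtf1 (−0.934), Stc2 (4.09) and Zfp386 (0.332) turned sign. The cause was not tested. All 34 named regions kept their direction under every alternative run.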
